A study of Mus musculus with 12 samples.

Results

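The CC chemokines described here are Ccl2, Ccl3, Ccl4, Ccl5, Ccl6, Ccl7, Ccl8, Ccl9, Ccl12 and Ccl22, a list of 10 genes found by symbol among the 56748 genes of a bulk RNA sequencing count table. They were read in M2-like bone marrow-derived macrophages (BMDM) exposed or not exposed to interferon beta (IFNβ). In cells given supernatant with tumor-derived IFNβ, Ccl8, Ccl7, Ccl5, Ccl12 and Ccl4 rose to between 2.79 and 18.4 times their level in cells given control supernatant. Ccl9 was 1.24 times as high, Ccl6 and the barely detected Ccl22 fell, and Ccl2 and Ccl3 did not pass the test. The same 8 genes passed in the same directions when recombinant IFNβ (rIFNβ) was compared with untreated cells. In a fit with a block for the replicate number, Ccl3 passed in both comparisons and Ccl2 in that of rIFNβ.

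CC chemokines are small secreted proteins, named for a pair of adjacent cysteines, that attract leukocytes through G protein-coupled receptors on the target cell. Macrophages are a main source of them. Ccl2, Ccl7, Ccl8 and Ccl12 belong to the monocyte chemoattractant protein group, whose best known receptor, Ccr2, brings monocytes out of the bone marrow and into inflamed tissue. Ccl3, Ccl4 and Ccl5 draw T cells and other leukocytes, Ccl6 and Ccl9 are rodent ligands of Ccr1, and Ccl22 attracts cells that carry Ccr4, regulatory T cells among them.

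The macrophages came from bone marrow of wild-type female C57BL/6J mice, bought at 10 to 12 weeks of age, and were grown with M-CSF at 20 ng/mL for 72 hours and then 48 hours more. All 12 cultures then received IL4 at 10 ng/mL for 48 hours and spent 72 hours in 1 of 4 conditions, each with 3 libraries and 3 mice by the stated design. The untreated control received plain medium. The eGFP supernatant came from YUMM5.2 eGFP cells, a mouse melanoma line carrying a lentiviral, tetracycline-responsive eGFP cassette, and the Ifnb1eGFP supernatant came from YUMM5.2 cells whose cassette also holds Ifnb1. Both lines had been kept in doxycycline (Dox), which switches the cassette on, at 1 µg/mL for 72 hours, whereas no Dox is described for the untreated control and rIFNβ cultures. Dilution brought the Ifnb1eGFP supernatant to 1500 pg/mL IFNβ, the eGFP supernatant received an identical dilution, and rIFNβ was matched to that concentration. The supernatants are mixtures from cells in culture, selected with puromycin and sorted for eGFP.

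Library totals ran from 31526034 to 45348457 counts. All 6 macrophage markers were present in every library, at a summed level of 14063 to 15212 counts per 1000000 counts of the library (CPM, scaled by TMM factors) in the untreated control, 17815 to 18394 in eGFP supernatant, 9155 to 9286 in Ifnb1eGFP supernatant and 8515 to 8618 in rIFNβ. The fall in this sum lay in Lyz2 (mean 12396 to 4111 CPM between the supernatants, 9415 to 3472 CPM in rIFNβ against control) and Itgam (1620 to 409 CPM and 1454 to 323 CPM), while Adgre1, Cd68 and Mertk were called higher and Csf1r was not called in both comparisons. Of 5 markers of IL4-driven polarization, Arg1 stayed under 1 CPM in every library and the other 4 were expressed. Chil3 was called higher in both comparisons (log2 fold change 0.77, adjusted p = 1.73e-05, and 0.67, adjusted p = 5.55e-05, edgeR). Arg1, Retnla, Mrc1 and Mgl2 were called in neither. Markers of T cells, NK cells, B cells, mast cells and basophils, and melanocytes were all under 1 CPM, but Klrb1c, an NK cell marker, fell from means of 0.548 and 0.330 CPM to 0 and 0.0174 CPM (adjusted p = 3.04e-05 and 0.000372, edgeR). The 3 stromal markers summed to between 22.6 and 65.1 CPM. Of these, Pdgfra rose (1.62 to 5.14 CPM between the supernatants, 2.47 to 5.57 CPM in rIFNβ), Col1a1 fell (16.8 to 8.24 CPM and 16.6 to 7.90 CPM) and Col1a2 was not called. The 7 neutrophil markers summed to 4.31 to 5.75 CPM in the untreated control, 4.34 to 5.03 CPM in eGFP supernatant and at most 1.01 CPM with IFNβ. S100a8 alone of them had enough counts to be tested and carried this fall (5.03 and 4.49 CPM without, 0.272 and 0.439 CPM with IFNβ), and the other 6 were at 0 or under 1 CPM. The 5 dendritic cell markers summed to 1.54 to 2.13 CPM without and 0.348 to 0.697 CPM with IFNβ, with Zbtb46 lower in both comparisons (adjusted p = 3.25e-06 and 4.83e-06, edgeR) and Clec9a lower between the supernatants alone (adjusted p = 0.00233, and 0.628 in rIFNβ, edgeR). The part of these shifts in the values below was not tested, and in bulk libraries fewer cells of a type and less RNA per cell cannot be told apart. As a check of exposure, 6 interferon-stimulated genes (Ifit1, Isg15, Irf7, Mx1, Rsad2 and Oasl1) summed to between 5618 and 6606 CPM in the 6 IFNβ-exposed libraries. They summed to between 41.1 and 86.6 CPM in 5 of the 6 unexposed libraries and to 426.0 CPM in eGFP supernatant replicate 2, which therefore stands apart. Without this library 8 of the 10 genes were still called between the supernatants, 6 higher and 2 lower, where 47.9% of all genes were called, and its weight in the single values is given beside them.

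Of the 10 genes, 9 lie on chromosome 11 in 2 stretches (GRCm39). The first stretch spans 81.2 kb and holds, all on the plus strand, Ccl2 (chr11:81926397-81928279), Ccl7 (chr11:81936532-81938351), Ccl12 (chr11:81992645-81994466) and Ccl8 (chr11:82006007-82007625). The second spans 139.0 kb and holds, on the minus strand, Ccl5 (chr11:83416602-83425942), Ccl9 (chr11:83463745-83473161), Ccl6 (chr11:83478708-83483913) and Ccl3 (chr11:83538670-83540191), followed by Ccl4 (chr11:83553383-83555509) on the plus strand. Ccl22 lies alone on chromosome 8 (chr8:95471226-95478327, plus strand). All 10 are protein-coding genes of 3 or 4 exons.

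All 10 genes entered the test across 15033 genes, but Ccl22, at 0 to 13 counts per library, passed the filter on low counts with little to spare. It had 6 to 13 counts in unexposed libraries and at most 3 with IFNβ, so its entry depended on the group where it was higher. Ccl5 had 3 to 17 counts in unexposed libraries and 85 to 214 with IFNβ. Both genes are included in the counts below. In Ifnb1eGFP against eGFP supernatant 6 of the 10 were higher, 2 lower and 2 not called at an adjusted p of at most 0.05 (quasi-likelihood test of edgeR, Benjamini-Hochberg adjusted across the genes tested), where 55.1% of all genes were called, 30.1% higher and 25.0% lower. In rIFNβ against untreated control the counts were again 6 higher and 2 lower, beside 55.3% of all genes called, 30.7% higher and 24.6% lower. Most genes of the table that were tested were called, so the count of 8 of 10 has to be read beside the size of the changes. The median log2 fold change of the 10 was 0.90 in the supernatant comparison and 1.03 in the rIFNβ comparison, beside medians of 0.03 and 0.04 over all genes tested. A stricter rule, at least 2 in either direction on the log2 scale and 0.01 as the largest adjusted p, was met by 5 of the 10 in each comparison, against 5.39% and 5.77% of all genes. Both times these were Ccl5, Ccl7, Ccl8 and Ccl12, which rose, and Ccl22, which fell from few counts. Ccl4, at 1.48 and 1.61, did not meet the rule. The 3 exposed and 3 unexposed libraries did not overlap for 8 of the 10 in each comparison, where 59.0% and 66.1% of all genes had no overlap.

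**Figure D1:**
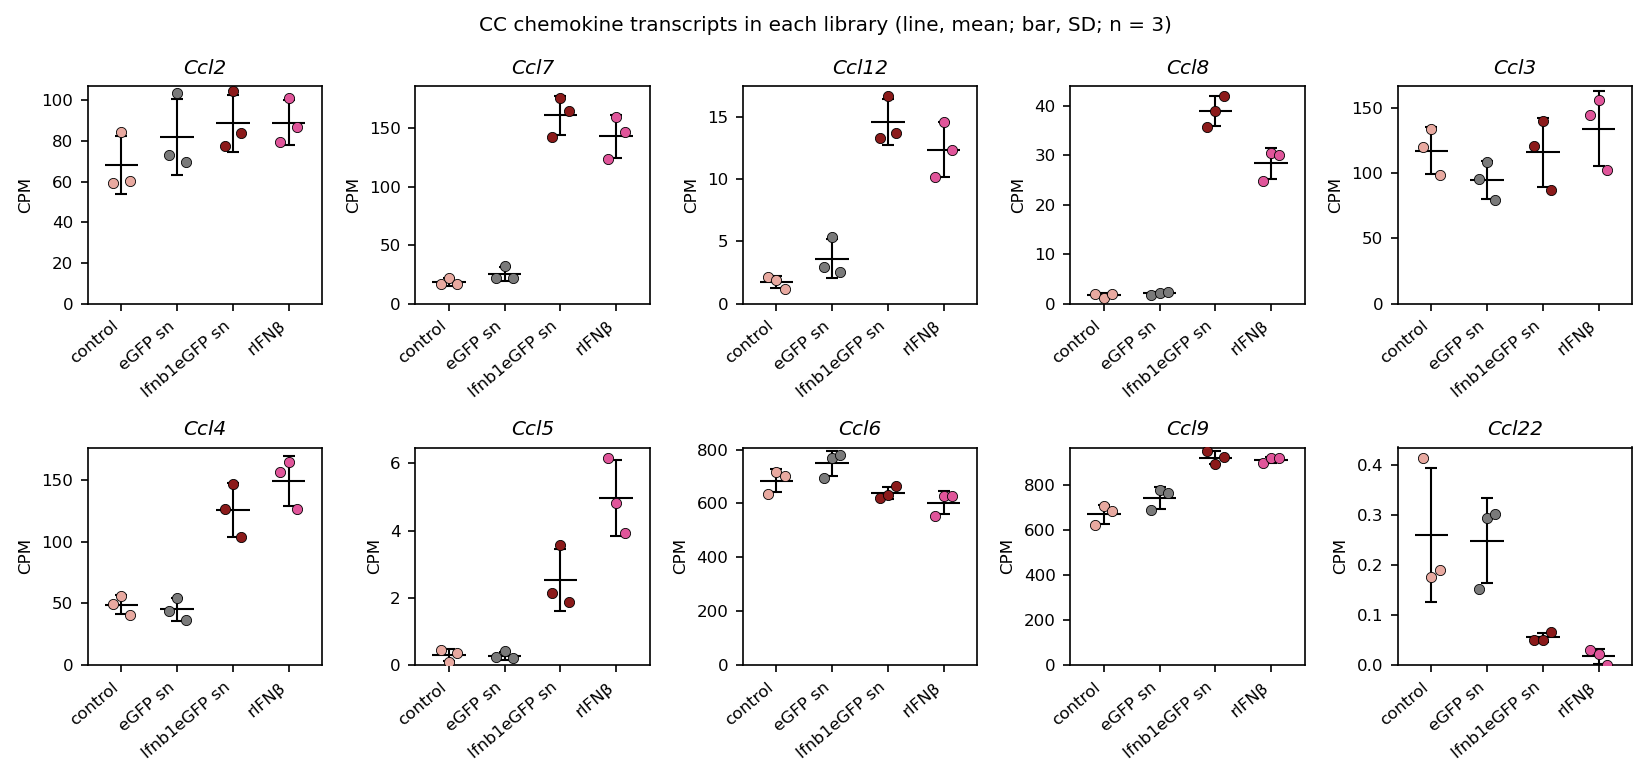
Level of each gene in CPM (vertical axes, linear, each from 0) in the 12 libraries, grouped by condition (sn, supernatant). Points are libraries, lines are means and bars are SD (n = 3 each). In the panels of Ccl4, Ccl5, Ccl7, Ccl8 and Ccl12 every IFNβ-exposed library lies above every unexposed one, while in the panels of Ccl2 and Ccl3 the conditions overlap.

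Ccl8, a monocyte chemoattractant protein, showed the clearest separation. Its level was 1.88, 1.20 and 1.94 CPM in untreated controls 1 to 3 and 1.82, 2.19 and 2.33 CPM in eGFP supernatant. It was 35.8, 39.0 and 42.0 CPM in Ifnb1eGFP supernatant and 24.8, 30.4 and 30.0 CPM in rIFNβ. The lowest exposed library was thus far above the highest unexposed one, and no unexposed library, eGFP supernatant replicate 2 included, approached the exposed range. The log2 fold change was 4.20 (SE 0.150, adjusted p = 1.76e-09, edgeR), or 18.4 times, for Ifnb1eGFP against eGFP supernatant, and 4.23 without eGFP supernatant replicate 2. It was 4.08 (SE 0.156, adjusted p = 2.41e-09, edgeR), or 16.9 times, for rIFNβ against control.

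Ccl7 encodes another monocyte attractant and lies 8.25 kb from Ccl2. Untreated controls had 16.8, 22.2 and 16.7 CPM and eGFP supernatant libraries 22.0, 32.3 and 21.5 CPM. With IFNβ the level was 143, 176 and 165 CPM in Ifnb1eGFP supernatant and 123, 159 and 146 CPM in rIFNβ. The exposed and unexposed libraries did not overlap, and replicate 2 was the highest library in each of the 4 conditions. On the log2 scale the rise was 2.67 (SE 0.174, adjusted p = 1.75e-07, edgeR) between the supernatants and 2.95 (SE 0.178, adjusted p = 8.50e-08, edgeR) for rIFNβ against control. Without eGFP supernatant replicate 2 the value between the supernatants was 2.89.

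Ccl12, a mouse relative of Ccl2 that also attracts monocytes, was expressed at a lower level. It stood at 2.13, 1.87 and 1.16 CPM in untreated controls and at 2.91, 5.39 and 2.51 CPM in eGFP supernatant. It reached 13.3, 16.7 and 13.7 CPM in Ifnb1eGFP supernatant and 10.2, 14.6 and 12.4 CPM in rIFNβ. Again no exposed library overlapped an unexposed one, and the highest unexposed value belonged to eGFP supernatant replicate 2, the library with the raised interferon-stimulated genes. Its log2 fold change was 2.02 (SE 0.266, adjusted p = 5.67e-05, edgeR) between the supernatants and 2.43 without that library. For rIFNβ against control it was 2.87 (SE 0.294, adjusted p = 6.90e-06, edgeR).

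Ccl2, the best known monocyte attractant, did not pass in either comparison. Its levels were 59.4, 84.6 and 60.3 CPM in untreated controls, 73.0, 104 and 69.7 CPM in eGFP supernatant, 77.6, 104 and 84.1 CPM in Ifnb1eGFP supernatant and 79.3, 101 and 86.7 CPM in rIFNβ. The conditions overlapped, and replicate 2 was the highest library in all 4. Its log2 fold changes were 0.11 (SE 0.182, adjusted p = 0.630, edgeR) between the supernatants and 0.39 (SE 0.183, adjusted p = 0.0942, edgeR) for rIFNβ against control. The second value passed without untreated control replicate 2 (0.57, adjusted p = 0.0240) and with no filter on low counts (0.39, adjusted p = 0.0379), and the first was 0.31 (adjusted p = 0.158) without eGFP supernatant replicate 2. With a block for the replicate number, given in the closing section, the value of rIFNβ against control also passed.

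Neighbours in the first stretch therefore changed unequally within the same libraries. The count of Ccl7 for each count of Ccl2 was 0.274 ± 0.010 (SD, n = 3) in untreated controls and 0.307 ± 0.00492 (SD, n = 3) in eGFP supernatant. It was 1.83 ± 0.141 (SD, n = 3) in Ifnb1eGFP supernatant and 1.61 ± 0.0717 (SD, n = 3) in rIFNβ. Ccl8 for each count of Ccl2 went from 0.0260 ± 0.0102 and 0.0265 ± 0.00633 (SD, n = 3 each) in the unexposed conditions to 0.445 ± 0.0645 and 0.320 ± 0.0231 (SD, n = 3 each) with IFNβ, in the same order. Without replicate 2 the eGFP supernatant ratios were 0.305 and 0.0292, in that order (n = 2). Neither ratio overlapped between exposed and unexposed libraries, and the ratio of Ccl7 to Ccl2 varied less between replicates than either level did. With 3 libraries against 3 an exact permutation test cannot give a p under 0.1, so the ratios are given without one.

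**Figure D2:**
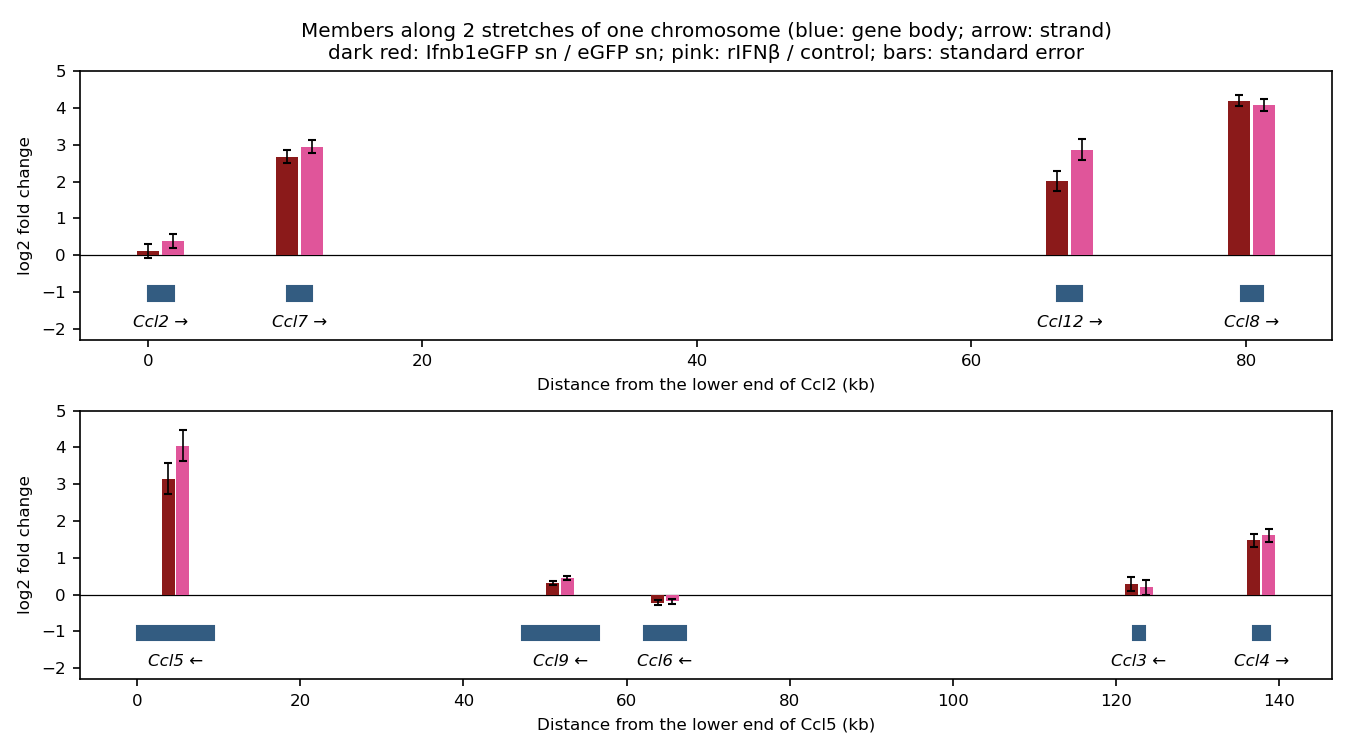
Log2 fold change (vertical axis) of the 9 chemokine genes of chromosome 11 at their distance in kb from the lower end of Ccl2 (top) and of Ccl5 (bottom). Bars are drawn from 0 and carry ± 1 standard error, dark red for Ifnb1eGFP against eGFP supernatant (sn) and pink for rIFNβ against control, and blue boxes are the gene bodies to scale with an arrow for the strand. Large and small changes stand side by side in both stretches, with 0.11 for Ccl2 next to 2.67 for Ccl7, and 0.29 for Ccl3 next to 1.48 for Ccl4.

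Promoter sequence was at hand for 6 of the 10 genes (Ccl3, Ccl6, Ccl8, Ccl9, Ccl12 and Ccl22) in a RefSeq promoter table, and each window of 250 bases before the start was found once in GRCm39. Shown are Ccl8 and Ccl12, the strongly raised genes among these 6, and Ccl3, whose change did not pass. Capitals mark the letters TATAAA of a TATA box and the letters GAGGAA of a PU box, the purine-rich core that the macrophage factor PU.1 is known to bind, which reads TTCCTC when it lies on the other strand. The windows are chr11:82005761-82006010 (plus strand) for Ccl8, chr11:81992421-81992670 (plus strand) for Ccl12 and chr11:83540205-83540454 (minus strand) for Ccl3, each read 5′ to 3′ toward the start. The start is that of RefSeq and can differ from the gene ends given above: the windows of Ccl9 and Ccl22 lie whole inside the gene bodies, those of Ccl12 and Ccl8 reach 26 and 4 bases into them, and those of Ccl3 and Ccl6 lie outside.
Ccl8: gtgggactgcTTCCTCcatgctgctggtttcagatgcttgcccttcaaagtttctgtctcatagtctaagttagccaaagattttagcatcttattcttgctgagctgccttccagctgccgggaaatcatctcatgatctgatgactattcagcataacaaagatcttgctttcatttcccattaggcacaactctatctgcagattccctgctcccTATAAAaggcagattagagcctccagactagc
Ccl12: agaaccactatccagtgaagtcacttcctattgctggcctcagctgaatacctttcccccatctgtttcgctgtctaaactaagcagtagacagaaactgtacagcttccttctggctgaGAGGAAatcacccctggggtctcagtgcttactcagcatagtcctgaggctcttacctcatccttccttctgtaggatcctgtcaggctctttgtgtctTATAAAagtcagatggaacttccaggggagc
Ccl3: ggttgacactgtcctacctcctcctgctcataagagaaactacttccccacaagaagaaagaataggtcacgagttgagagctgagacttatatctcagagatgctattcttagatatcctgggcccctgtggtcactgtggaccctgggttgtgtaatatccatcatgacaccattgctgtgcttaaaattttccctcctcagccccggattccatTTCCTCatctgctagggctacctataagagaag

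The TATA letters began 32 bases before the RefSeq start in Ccl8 and 31 bases before it in Ccl12, and were absent from the window of Ccl3. TATAAA was found on either strand in 3 of the 6 windows and in 12.4% of 32851 promoters of the same length, and GAGGAA in 3 of the 6 and 23.3% of promoters. The core of the interferon-stimulated response element, GAAA, any pair of bases and GAAA again, was found in 0 of the 6 windows and in 2.98% of promoters. The consensus site of NF-kB, the factor family that drives many inflammatory genes, was found in 1 of the 6, Ccl9, and in 7.25% of promoters. These matches describe letters in short windows and say nothing of binding.

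Among the chemokines that draw T cells, Ccl5 (RANTES) rose from a very low base. Untreated controls had 0.445, 0.0878 and 0.355 CPM, from 14, 3 and 15 counts, and eGFP supernatant libraries 0.227, 0.414 and 0.201 CPM, from 9, 17 and 8 counts. Ifnb1eGFP supernatant libraries had 2.15, 3.58 and 1.87 CPM and rIFNβ libraries 6.17, 4.81 and 3.92 CPM, from 85 to 214 counts. The exposed libraries lay above all unexposed ones, and the 3 rIFNβ libraries lay above the 3 Ifnb1eGFP supernatant libraries. Ccl5 rose on the log2 scale by 3.15 (SE 0.426, adjusted p = 6.75e-05, edgeR) between the supernatants and 4.05 (SE 0.424, adjusted p = 8.15e-06, edgeR) for rIFNβ against control, with the widest standard errors of the 6 genes that rose. Without eGFP supernatant replicate 2 the first value was 3.54.

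Ccl4 (MIP-1β) was well expressed without IFNβ and rose with it. Levels were 49.5, 56.2 and 40.9 CPM in untreated controls and 44.1, 54.5 and 36.6 CPM in eGFP supernatant. With IFNβ they were 127, 147 and 104 CPM in Ifnb1eGFP supernatant and 157, 165 and 126 CPM in rIFNβ. The exposed libraries were all higher, and within each condition replicate 2 was the highest and replicate 3 the lowest. The log2 fold change was 1.48 (SE 0.176, adjusted p = 2.39e-05, edgeR) between the supernatants and 1.61 (SE 0.176, adjusted p = 1.16e-05, edgeR) for rIFNβ against control, or 2.79 and 3.06 times. Leaving out eGFP supernatant replicate 2 gave 1.64 between the supernatants.

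Ccl3 (MIP-1α), which shares receptors with Ccl4 and lies 13.2 kb from it, did not pass. Its levels were 120, 134 and 98.7 CPM in untreated controls, 96.0, 109 and 79.9 CPM in eGFP supernatant, 121, 140 and 87.4 CPM in Ifnb1eGFP supernatant and 145, 156 and 102 CPM in rIFNβ. All 4 conditions overlapped, with replicate 2 the highest and replicate 3 the lowest in each. Its log2 fold changes were 0.29 (SE 0.198, adjusted p = 0.240, edgeR) between the supernatants, 0.40 (adjusted p = 0.165) without eGFP supernatant replicate 2, and 0.19 (SE 0.198, adjusted p = 0.437, edgeR) for rIFNβ against control. Ccl3 did pass in both comparisons with a block for the replicate number, given in the closing section. Of the 10 genes, Ccl3 alone had no whole count in any of the 12 libraries, so part of its reads were split between it and other transcripts. Ccl9 had whole counts in 11 of the 12 libraries and the other 8 genes in all of them. Gm53692 (4.82 to 13.8 CPM), a noncoding gene on the opposite strand, overlaps Ccl3.

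Ccl4 for each count of Ccl3 was 0.415 ± 0.00426 (SD, n = 3) in untreated controls, 0.473 ± 0.0238 (SD, n = 3) in eGFP supernatant (0.459 without replicate 2), 1.09 ± 0.0784 (SD, n = 3) in Ifnb1eGFP supernatant and 1.12 ± 0.0963 (SD, n = 3) in rIFNβ. The exposed and unexposed ratios did not overlap, although the levels of both genes followed the replicate number. In untreated controls the ratio ran from 0.412 to 0.420, while the level ran from 98.7 to 134 CPM for Ccl3 and from 40.9 to 56.2 CPM for Ccl4.

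Ccl6 and Ccl9, neighbours 5.55 kb apart, were the most abundant of the 10 and moved in opposite directions by small amounts. Ccl9 stood at 623, 704 and 681 CPM in untreated controls and 686, 775 and 761 CPM in eGFP supernatant, and at 948, 889 and 920 CPM in Ifnb1eGFP supernatant and 894, 919 and 916 CPM in rIFNβ. Every exposed library was above every unexposed one. The log2 fold change was 0.31 (SE 0.0581, adjusted p = 0.000786, edgeR) between the supernatants, 0.35 without eGFP supernatant replicate 2, and 0.44 (SE 0.0581, adjusted p = 5.17e-05, edgeR) for rIFNβ against control.

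Ccl6 stood at 635, 718 and 701 CPM in untreated controls and 694, 770 and 781 CPM in eGFP supernatant, and at 621, 633 and 664 CPM in Ifnb1eGFP supernatant and 555, 629 and 626 CPM in rIFNβ. Within each comparison the exposed libraries were all lower, although untreated control replicate 1 lay inside the range of the Ifnb1eGFP supernatant libraries. The log2 fold change was -0.23 (SE 0.0678, adjusted p = 0.0139, edgeR) between the supernatants and -0.18 (SE 0.0678, adjusted p = 0.0394, edgeR) for rIFNβ against control. The fall between the supernatants missed the threshold without eGFP supernatant replicate 3 (-0.20, adjusted p = 0.0533) and was -0.21 (adjusted p = 0.0474) without its replicate 2. That in rIFNβ missed it without untreated control replicate 2 (-0.15, adjusted p = 0.141), untreated control replicate 3 (-0.17, adjusted p = 0.109) or rIFNβ replicate 1 (-0.12, adjusted p = 0.164), and with no filter on low counts (-0.18, adjusted p = 0.0679).

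The count of Ccl9 for each count of Ccl6 separated the conditions more widely than either level. It was 0.977 ± 0.00431 (SD, n = 3) in untreated controls and 0.989 ± 0.0164 (SD, n = 3) in eGFP supernatant, or 0.981 without its replicate 2. It was 1.44 ± 0.0757 (SD, n = 3) in Ifnb1eGFP supernatant and 1.51 ± 0.0850 (SD, n = 3) in rIFNβ, with no overlap between exposed and unexposed libraries. A noncoding gene on the opposite strand, E230016K23Rik (0.0890 to 0.946 CPM), overlaps both.

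Ccl22, a chemokine usually tied to IL4-driven macrophages, was close to absent in all conditions. It had 13, 6 and 8 counts in untreated controls and 6, 12 and 12 counts in eGFP supernatant, and 2, 2 and 3 counts in Ifnb1eGFP supernatant and 1, 1 and 0 counts in rIFNβ. Every exposed library had fewer counts than every unexposed one. Relative to depth, the summed counts were 4.48 times higher in eGFP than in Ifnb1eGFP supernatant (95% interval 1.93 to 12.1, from 30 and 7 counts), and 14.7 times higher in untreated control than in rIFNβ (95% interval 3.70 to 128, from 27 and 2 counts). These exact intervals cover counting error only. Both falls passed the test (adjusted p = 0.00620 and 0.000727, edgeR), the first also without eGFP supernatant replicate 2 (adjusted p = 0.0241).

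**Figure D3:**
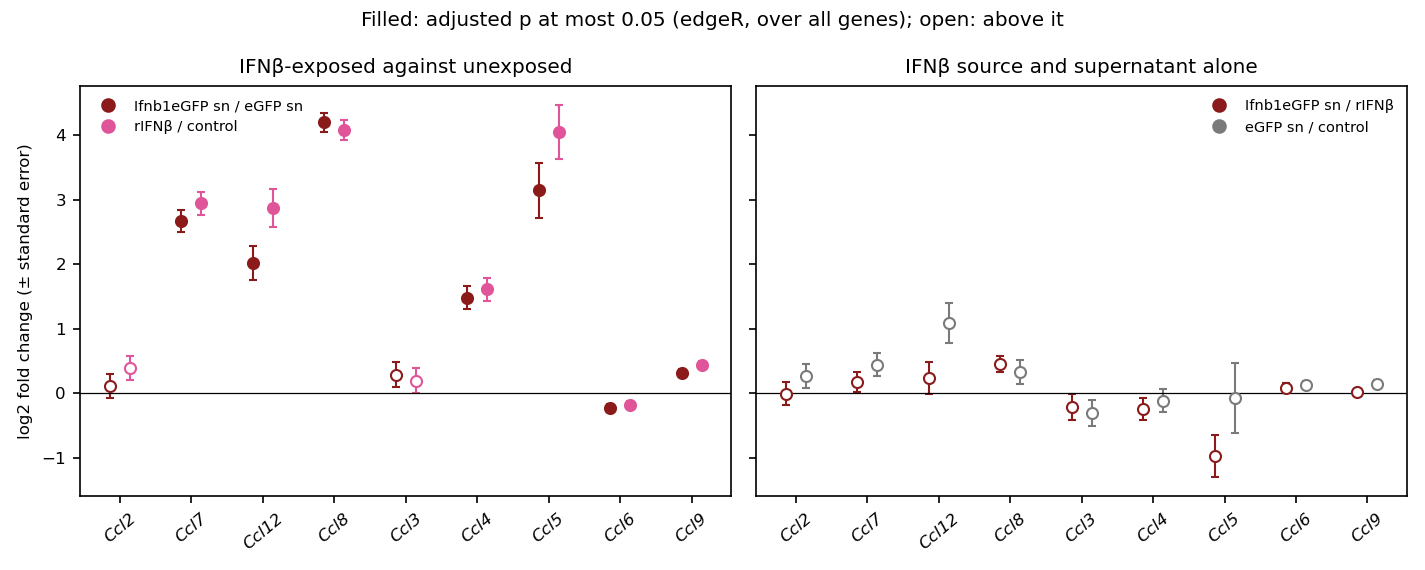
Log2 fold change ± 1 standard error (vertical axis) of 9 of the 10 genes, without Ccl22, whose fitted fold change rests on very few counts. On the left are Ifnb1eGFP against eGFP supernatant (sn) and rIFNβ against control, and on the right Ifnb1eGFP supernatant against rIFNβ and eGFP supernatant against control; filled points have an adjusted p of at most 0.05. On the left 7 genes are filled in both colors and reach 4.20, and on the right no point is filled.

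The comparison of Ifnb1eGFP supernatant with rIFNβ set the sources of IFNβ side by side at the same stated concentration. Only the former came in supernatant of Dox-treated melanoma cells, so the source and the rest of the supernatant cannot be told apart here. Of the 10 genes 0 were called by edgeR, beside 0.16% of all genes, 2 had an unadjusted p under 0.05, and DESeq2 called 1. Ccl8 was higher in Ifnb1eGFP supernatant, with no overlap (log2 fold change 0.45, SE 0.121, adjusted p = 0.340 in edgeR and 0.0221 in DESeq2). Ccl5 was lower in Ifnb1eGFP supernatant, also with no overlap (-0.97, SE 0.330, adjusted p = 0.506, edgeR), and passed without Ifnb1eGFP supernatant replicate 2 (-1.30, adjusted p = 0.0442). Ccl22 was the other gene without overlap, at 3 counts or fewer in each of these 6 libraries, and 12.8% of all genes had no overlap here. For Ccl9 the difference was 0.01 (SE 0.0580), for Ccl6 0.08 (SE 0.0678) and for Ccl7 0.17 (SE 0.161). For Ccl12 (0.23, SE 0.245) and Ccl4 (-0.25, SE 0.170) the standard errors were wider, and a p that misses the threshold does not show that the sources acted alike.

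The comparison of eGFP supernatant with untreated control shows what control supernatant did without added IFNβ. Again 0 of the 10 genes were called by edgeR, beside 0.299% of all genes, 3 had an unadjusted p under 0.05, and DESeq2 called 1. That gene was Ccl12 (log2 fold change 1.09, SE 0.309, adjusted p = 0.268 in edgeR and 0.0184 in DESeq2), the 1 gene of the 10 without overlap where 15.5% of all genes had none. Without eGFP supernatant replicate 2 its log2 fold change was 0.68 (adjusted p = 0.678). The others with an unadjusted p under 0.05 were Ccl7 (0.44, SE 0.173, adjusted p = 0.521, edgeR) and Ccl9 (0.15, SE 0.0580, adjusted p = 0.533, edgeR). Ccl7 was at 0.23 without that library, and the part that its raised interferon-stimulated genes have in either value was not tested.

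The interaction, the response to Ifnb1eGFP over eGFP supernatant minus the response to rIFNβ over control, was called for 0 of the 10 genes by edgeR, beside 0.0% of all genes. It had an unadjusted p under 0.05 for 0 of them, and DESeq2 called 0. The value nearest to the threshold was that of Ccl12 (-0.86, SE 0.395, adjusted p = 0.926, edgeR), which was -0.44 without eGFP supernatant replicate 2. The interaction was -0.90 (SE 0.640) for Ccl5, 0.12 (SE 0.220) for Ccl8 and -0.27 (SE 0.236) for Ccl7, and these standard errors leave room for sizable differences.

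Levels of different genes can be compared per length, as CPM per kb of exon sequence of the canonical transcript of each gene. That length was 1440 bases for Ccl6 and 3011 bases for Ccl9, which have 9 and 4 annotated transcripts. The order and the shares below depend on this choice, and which transcripts were in use was not tested. In untreated controls the order was Ccl6 at 475 ± 30.4, Ccl9 at 222 ± 13.9, Ccl3 at 151 ± 22.8, Ccl2 at 83.7 ± 17.6 and Ccl4 at 71.1 ± 11.2 CPM per kb (SD, n = 3 each). Ccl7 followed at 23.0 ± 3.94 CPM per kb, and Ccl8 (3.25 ± 0.796), Ccl12 (2.14 ± 0.626), Ccl5 (0.553 ± 0.347) and Ccl22 (0.117 ± 0.0602) came last. The ranges of Ccl2 and Ccl4 overlapped, as did those of Ccl8 and Ccl12, although Ccl2 was above Ccl4 within each untreated control library. In Ifnb1eGFP supernatant Ccl6 (444 ± 15.3) and Ccl9 (305 ± 9.67) still led, but Ccl7 came next at 200 ± 20.7 CPM per kb, with a range that overlapped those of Ccl4 (183 ± 31.6) and Ccl3 (150 ± 34.3). Within each of these libraries Ccl7 was above Ccl3. Ccl2 (109 ± 17.3) and Ccl8 (75.6 ± 5.95) followed, and Ccl12, Ccl5 and Ccl22 were again the lowest at 18.2, 4.73 and 0.0249 CPM per kb.

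The summed level of the 10 genes was 1033 ± 79.1 CPM per kb in untreated controls, 1095 ± 86.4 in eGFP supernatant, 1489 ± 77.6 in Ifnb1eGFP supernatant and 1478 ± 98.4 in rIFNβ (SD, n = 3 each). Ccl6 and Ccl9 made up 67.6% ± 3.21 and 70.0% ± 3.88 of this sum in the unexposed conditions and 50.4% ± 3.47 and 48.9% ± 2.75 with IFNβ, in the same order (SD, n = 3 each). Ccl2, Ccl7, Ccl8 and Ccl12 together made up 10.8% ± 1.16 in untreated controls, 12.8% ± 1.97 in eGFP supernatant, 27.0% ± 1.96 in Ifnb1eGFP supernatant and 24.1% ± 1.92 in rIFNβ (SD, n = 3 each). Without its replicate 2 the eGFP supernatant values were 1047 CPM per kb for the sum and 71.8% and 11.7% for these shares. The exposed and unexposed ranges of both shares did not overlap. Most of the second gain lay in Ccl7, which went from 2.22% in untreated controls and 2.84% in eGFP supernatant to 13.4% and 11.97% with IFNβ. The share of Ccl3 and Ccl4 was 21.5% ± 2.49 in untreated controls, 17.1% ± 2.21 in eGFP supernatant (16.5% without its replicate 2), 22.3% ± 3.51 in Ifnb1eGFP supernatant and 26.4% ± 3.72 in rIFNβ (SD, n = 3 each), with overlap between exposed and unexposed libraries. Ccl5 and Ccl22 together stayed under 1% throughout.

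**Figure D4:**
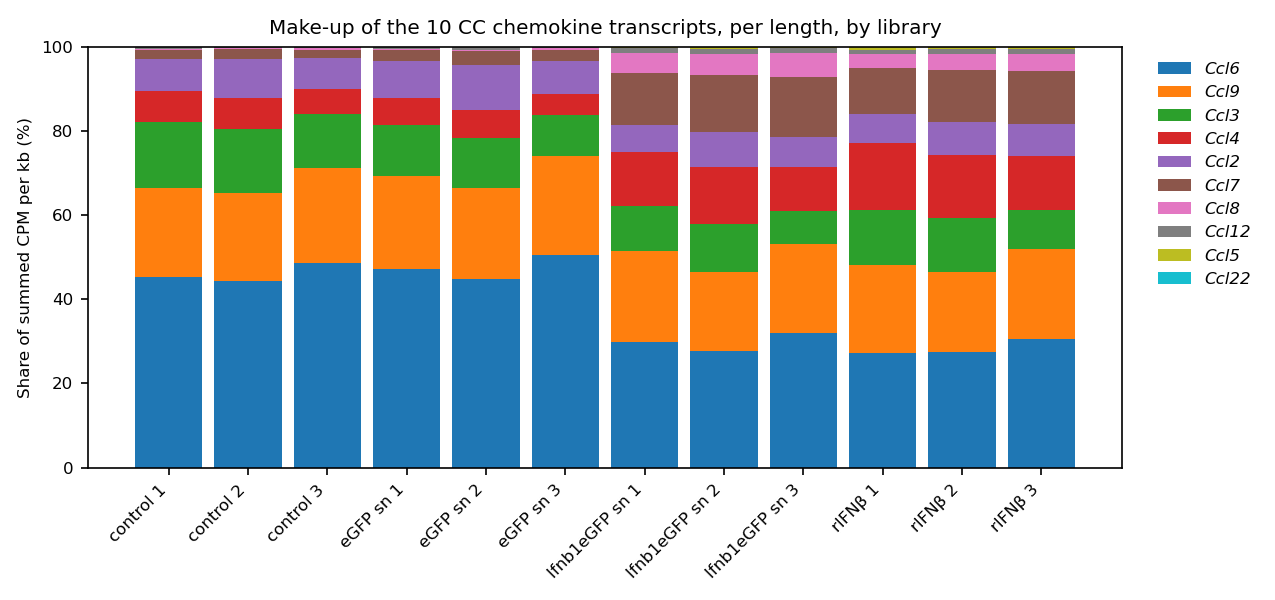
Share of each gene in the summed CPM per kb of the 10 chemokine genes (vertical axis, percent) in each of the 12 libraries (sn, supernatant; numbers are replicates). The share of Ccl6 and Ccl9 is between 46.6% and 53.2% in the IFNβ-exposed libraries and between 65.2% and 74.2% in the unexposed ones.

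The replicate numbers left a mark on some of the genes and not on others. Replicate 2 was the highest library in 4 of 4 conditions for Ccl2, Ccl3, Ccl4 and Ccl7, replicate 3 the lowest in 4 of 4 for Ccl3 and Ccl4, and replicate 1 the lowest in 4 of 4 for Ccl6. For Ccl8, Ccl9 and Ccl12 no number held the highest place in all 4 conditions. What a replicate number stands for is not given in the sources used here.

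Of the remaining CC chemokine genes, a list of 11, 4 had enough counts to be tested (Ccl11, Ccl25, Ccl27a and Ccl28). Between the supernatants 0 rose and 2 fell, beside the 55.1% of all genes called, and both falls missed the threshold without eGFP supernatant replicate 2. Ccl25, a chemokine of thymus and gut, was at 4.72 ± 0.705, 4.58 ± 0.747, 4.70 ± 0.162 and 4.20 ± 0.126 CPM in untreated controls, eGFP supernatant, Ifnb1eGFP supernatant and rIFNβ (SD, n = 3 each) and did not pass (0.04, adjusted p = 0.823, and -0.16, adjusted p = 0.323, edgeR). Per length, at 5.23 CPM per kb in untreated controls, it stood above Ccl8, Ccl12, Ccl5 and Ccl22. Ccl28, an epithelial chemokine, had a mean of 0.788 CPM against 1.77 CPM (log2 fold change -1.18, SE 0.439, adjusted p = 0.0400, edgeR, and 0.122 without that library). Ccl27a, known from skin, had 0.713 against 1.04 CPM (-0.54, SE 0.212, adjusted p = 0.0498, edgeR, and 0.0763 without that library). In rIFNβ against control 0 rose and 1, Ccl27a, fell. Ccl11 did not pass in either comparison, with 14, 13 and 0 counts in Ifnb1eGFP supernatant and 9, 26 and 0 counts in rIFNβ. It had at most 3 counts in any unexposed library.

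Of 13 CC and atypical chemokine receptor genes, 7 were tested, and 2 rose and 3 fell between the supernatants, with or without eGFP supernatant replicate 2, beside 55.1% of all genes called with it. Ccr2, the main receptor of Ccl2 and Ccl7, fell from 7.86 to 10.4 CPM in eGFP supernatant to between 0.869 and 1.37 CPM in Ifnb1eGFP supernatant (log2 fold change -3.003, SE 0.166, adjusted p = 4.82e-08, edgeR). Ccrl2, which binds chemerin without signaling, rose (log2 fold change 1.05, SE 0.0900, adjusted p = 1.71e-06, edgeR). Ackr4, a scavenging receptor, fell from between 1.72 and 2.05 CPM to at most 0.101 CPM (adjusted p = 6.02e-06, edgeR). In rIFNβ against control 1 receptor, Ccrl2 (1.28), rose and 3 fell, beside 55.3% of all genes, with Ccr2 at -3.36. Ccr1, a receptor of Ccl6 and Ccl9, rose between the supernatants (0.25, SE 0.0461, adjusted p = 0.000662, edgeR) and was the 1 receptor that passed between Ifnb1eGFP supernatant and rIFNβ (log2 fold change 0.42, SE 0.0462, adjusted p = 0.00476, edgeR). Its log2 fold change was 0.25 (SE 0.0462, adjusted p = 0.0664, edgeR) in eGFP supernatant against control. In rIFNβ against control it was 0.083 (SE 0.0461, adjusted p = 0.153, edgeR).

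Since several of these chemokines are also known as inflammatory genes induced through NF-kB, 10 genes of that kind were read beside them, of which 9 were tested. Between the supernatants 5 rose, 1 fell and 3 did not pass, beside 55.1% of all genes called. Without eGFP supernatant replicate 2, 10 were tested and only Nfkbiz and Ptgs2 were called higher and Tnfaip3 lower, beside 47.9% of all genes. In rIFNβ against control 5 again rose and 1 fell, beside 55.3% of all genes, with Il1a called higher in place of Cxcl1. Nfkbiz, a nuclear regulator of secondary response genes, rose by 1.37 (SE 0.139, adjusted p = 6.85e-06, edgeR) on the log2 scale. Ptgs2, the inducible cyclooxygenase, rose by 1.31 (SE 0.234, adjusted p = 0.000581, edgeR), and Il1b rose by 0.95 (SE 0.301, adjusted p = 0.0187, edgeR) at under 1 CPM but missed the threshold without that library (0.86, adjusted p = 0.0679). Tnfaip3, a feedback inhibitor of NF-kB signaling, had a log2 fold change of -1.59 (SE 0.0778, adjusted p = 1.79e-08, edgeR). Tnf did not pass (0.53, SE 0.380, adjusted p = 0.262, edgeR), as Ccl2 and Ccl3 did not.

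For each chemokine the tested genes with the most similar profile over the 12 libraries were found by the root mean square difference of log2 CPM, each gene being centred on its own mean. Nearest to Ccl7 were Slfn3 (0.182) and Slfn2 (0.187), nearest to Ccl12 were Slfn5 (0.315) and P2ry12 (0.325), and nearest to Ccl8 were Sp110-ps1 (0.289) and AW112010 (0.294). Ccl4 was closest to Trim14 (0.156) and Mov10 (0.159), and Ccl5 to Pou3f1 (0.474) and Ifitm6 (0.502), the widest distances of the 10. These distances are not scaled to how much a gene varies. The root mean square about the gene's own mean was 1.85 for Ccl5, 0.292 for Ccl3 and 0.264 for Ccl2. Ccl6 was nearest to Paf1 (0.0333) and Wdr13 (0.0497), Ccl9 to Ppp3cb (0.0393) and Pip4p1 (0.0452), and Ccl2 to Pyroxd2 (0.118) and Mansc1 (0.129). Ccl3 was nearest to Gm9512 (0.169) and Fgfbp3 (0.170), and Ccl22 to Fat3 (0.248) and Gm5834 (0.293). The points share their libraries and conditions, so these distances only describe the profiles.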

How the data were processed

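Bulk RNA sequencing of 12 libraries was analysed, 3 for each of 4 conditions, assigned to conditions by their titles and to columns by their descriptions. The authors made TruSeq Stranded Total RNA libraries, ran RSEM (v1.3.3, also named in the submitters' processing notes with DESeq2) and deposited expected counts per Ensembl gene without normalization. The genome is named GRCm39 mm10, a mix of 2 build names. Positions here are from GENCODE M39 on GRCm39. Whether strand was used in counting is not given in the sources used here. The table has 56748 genes, 12.03% of its values are not whole, and 0 columns were left out.

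Counts were rounded and analysed in R 4.3.3 with edgeR 4.0.16: filterByExpr (15033 genes), TMM factors, 1 quasi-likelihood model over the 12 libraries without a replicate block, and Benjamini-Hochberg adjustment over all genes tested. A standard error was taken as the log2 fold change divided by the square root of the F statistic. Log2 CPM used a prior count of 2. The fit was tested on simulated data. Library totals (31526034 to 45348457 counts) set the precision of low genes, and intervals for Ccl22 are exact (Clopper-Pearson, 95%). P-values measure the spread between libraries of 1 condition, stated to come from 3 mice.

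The 10 genes and all lists were chosen with earlier results of these data known. Named from the other lists are the 4 smallest p-values among genes called between the supernatants, besides Tnf, Il1a, Cxcl1, Ccl11, Ccl25 and the single cell type markers, named after their values were seen. A receptor gene of the list is not reported here. Motifs were searched on both strands of the 250 bases before each RefSeq start (table build GRCm38.p6, placed by exact match). Alternatives were DESeq2 1.42.0, RLE factors, all genes without the low-count filter, the replicate block, only the compared conditions, the stricter rule, and each library left out.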

Additional observations from a re-analysis of the deposited data

How the results depend on the processing

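The number of the 10 chemokine genes called was 8 in each of the IFNβ comparisons under edgeR, DESeq2, RLE factors and no filter on low counts. It was 7 in each when the fit held the compared conditions alone, where Ccl22 was filtered out, 5 in each under the stricter rule, and between 7 and 8 in each with single libraries left out. Between Ifnb1eGFP supernatant and rIFNβ it was 0, but 1 under DESeq2 (Ccl8), and between 0 and 1 with single libraries left out (Ccl5). Between eGFP supernatant and control it was 0, but 1 under DESeq2 and 1 with no filter on low counts, Ccl12 both times (adjusted p = 0.0184 and 0.0491). For the interaction it was 0 under every alternative run. Of 600 values with single libraries left out, 575 kept their direction and side of the threshold, as did 222 of 235 under the other alternatives.

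The replicate numbers were not taken as pairs, because deviations from the condition means did not correlate over 0.1 in every pair with the same number. They did in 13 of 18 such pairs (mean r 0.148, range 0.058 to 0.252), against 1 of 36 pairs with different numbers (mean r -0.0742). Even so, 11 of 12 libraries correlated best with their own number, and what the numbers stand for was not tested. With the replicate block 9 and 10 of the genes were called in the IFNβ comparisons, since Ccl3 (0.28, adjusted p = 0.00197, and 0.18, adjusted p = 0.0181) and in rIFNβ Ccl2 (0.40, adjusted p = 0.000342) passed, and 1 between eGFP supernatant and control, Ccl3 (-0.31, adjusted p = 0.0447).

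None of the values that reversed had been called. For Ccl2 between Ifnb1eGFP supernatant and rIFNβ the log2 fold change of -0.01 became 0.00533 under DESeq2, 0.00494 under RLE factors, 0.000424 with no filter on low counts and 0.00256 with only the compared conditions, and ran from -0.14 to 0.10 with single libraries left out. With single libraries left out, Ccl9 ran from -0.00360 to 0.038 in the same comparison, and Ccl2 from -0.021 to 0.31 between the supernatants. Between eGFP supernatant and control Ccl4 ran from -0.27 to 0.014, Ccl5 from -0.49 to 0.28 and Ccl22 from -0.23 to 0.44. The interaction ran from -0.067 to 0.27 for Ccl3, -0.26 to 0.028 for Ccl4, -0.10 to 0.00752 for Ccl6 and -0.015 to 0.31 for Ccl8. Low counts limit Ccl22 and the unexposed levels of Ccl5. The causes of these shifts were not tested.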
